A study of Mus musculus with 25 samples.

Results

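The genes described here are the ATP-binding cassette (ABC) genes of the mouse, apart from the cholesterol exporters Abca1 and Abcg1. They were taken by their symbols, as every gene named Abc with a subfamily letter from a to g and a number, which gave 48 of the 23351 genes in the table. By subfamily there were 15 A, 10 B, 10 C, 4 D, 1 E, 3 F and 5 G genes. The RNA came from mouse brain, from areas cut out of tissue under a microscope with a laser (laser capture microdissection), and its labels call it oligodendrocyte precursor cells (OPC), glia that divide and mature into the oligodendrocytes that make myelin. The 25 RNA-seq libraries fall into 10 from control mice and 2 groups with white matter stroke, in which fibre tracts lose their blood supply, with 8 libraries labelled Day 5 and 7 labelled Day 15. The sources used here do not give the strain, sex and age of the animals, or say what was done to the controls. The labels tie no library to an animal, so libraries of a group may share one. All p-values below are too small if they do, and cover the spread between libraries alone, which may be technical.

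ABC proteins bind and split ATP. Most use that energy to move a substrate across a membrane, from drugs and conjugated toxins to lipids, fatty acids, peptides and bile salts. The subfamilies differ in place and cargo: several B, C and G members export drugs at the cell surface and at the blood-brain barrier, A members move lipids, D members serve the peroxisome, where very long fatty acids are broken down, and some B members sit in the mitochondrion. The E and F proteins have no membrane part and act on ribosomes, and the sulfonylurea receptors Abcc8 and Abcc9 gate potassium channels instead of carrying a substrate. The authors deposited RPKM, a read number per length of gene and size of library, and levels below are in that unit. The number of reads behind a value is unknown.

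The captured material was read for cell type markers first. Summed over 9 OPC markers, the level ran from 7.44 to 112 RPKM in controls, from 19.4 to 111 at Day 5 and from 14.8 to 283 at Day 15, and at least 7 of the 9 were above 0 in every library. The sum over 10 markers of mature oligodendrocytes had a median of 639 RPKM in controls, 248 at Day 5 and 168 at Day 15. The sum over 12 macrophage and leukocyte markers had a median of 15.4 RPKM in controls (1.78 to 86.5), 814 at Day 5 (157 to 2611) and 125 at Day 15 (48.2 to 593), and for 14 microglia markers the medians were 34.2, 181 and 330. Of these, 7 of 8 tested macrophage genes and 6 of 14 tested microglia genes rose at Day 5 (limma, Benjamini-Hochberg adjusted p under 0.05). In bulk samples such as these, more cells of a type and more RNA per cell cannot be told apart. Summed over 10 endothelial markers, the medians were 6.79 RPKM for controls (1.14 to 35.8), 11.1 for Day 5 (4.16 to 37.1) and 14.8 for Day 15 (1.03 to 31.3), and 0 of 4 tested genes passed in any comparison. The endothelial sum was above the OPC sum in 3 libraries (Control replicate 4, Day 5 replicate 8 and Day 15 replicate 7), and the sum over 9 pericyte and smooth muscle markers in 2 (Control replicate 4 and Day 5 replicate 4). The endothelial genes were not alike in level. Cldn5 was listed at 0 in 5 of 10 control, 1 of 8 Day 5 and 5 of 7 Day 15 libraries and was never above 0.806 RPKM. The 4 tested genes, Cdh5, Flt1, Slc2a1 and Slco1a4, each reached an RPKM of 1 in 7 or more libraries.

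Most ABC genes were present at low levels. None was at 0 throughout, each was above 0 in at least 12 libraries, and 6 (Abca2, Abcc1, Abcc9, Abcd3, Abce1 and Abcf1) were above 0 in all 25. The number of ABC genes above 0 averaged 36.3 ± 9.87 of 48 in the 10 controls (mean ± SD). It was 44.4 ± 6.86 in the 8 Day 5 libraries and 40.4 ± 7.74 in the 7 Day 15 libraries. At an RPKM of at least 1 the numbers fell to 5.6 ± 3.27, 13.1 ± 7.83 and 8.86 ± 5.05. The richest library by that limit was Day 5 replicate 3 with 26 of the 48, and the poorest was Day 5 replicate 9 with 1. The groups overlapped at both limits.

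Detection of the family followed detection of all genes. All genes of the table above 0 averaged 56.0% for controls, 74.4% for Day 5 and 59.2% for Day 15 libraries, against 75.6%, 92.4% and 84.2% of the ABC genes. The ABC share was the larger in all 25 libraries above 0 and in 19 of 25 at an RPKM of at least 1. In controls the count also went with the replicate number in the label. Controls numbered 1 to 6 held 25 to 38 ABC genes above 0 and 9588 to 14142 genes in all, and those numbered 7 to 10 held 46 to 48 ABC genes and 16013 to 17407 genes. The labels name no batch. A gene listed at 0 can be a failed measurement in such libraries, since 2 of 9 housekeeping genes examined were themselves listed at 0 in 1 library each.

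**Figure D1:**
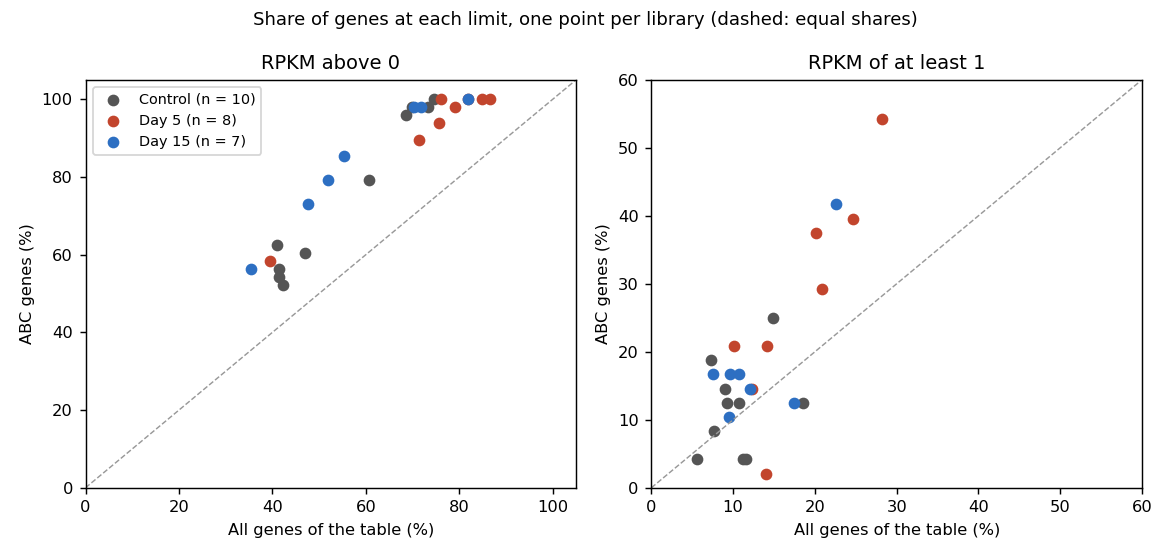
Share of the 48 ABC genes (vertical axis, %) against the share of all 23351 genes (horizontal axis, %) above 0 (left) and at an RPKM of at least 1 (right), with 1 point per library. On the left every point lies above the dashed line of equal shares, and controls split into libraries with 25 to 38 and with 46 to 48 ABC genes; on the right 19 of 25 lie above it.

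By role, the soluble proteins of the ribosome were the most widely held, above 0 in 23 to 25 libraries each, with Abce1, which splits spent ribosomes for reuse, at an RPKM of at least 1 in 15 libraries. Abca2, an endosomal and lysosomal lipid transporter abundant in oligodendrocytes, reached an RPKM of 1 in 20 libraries and was the highest ABC gene in 10 of 25. The other A members ranged from Abca7, Abca12 and Abca14, which reached an RPKM of 1 in 1 library each, to Abca5 in 6 and Abca9 in 8 libraries. The transporters of bile and of sterols were the scarcest. Abcg5, which exports sterols together with Abcg8, was above 0 in 12 libraries and never reached an RPKM of 1, and neither did Abcg8, Abcb11 (the bile salt pump), Abcc6 or Abcd4, which moves cobalamin out of lysosomes.

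Single libraries carried much of the signal. For 11 of the 48 genes, 1 library held over 50% of the summed RPKM of all 25, a share of 22.9%, and among the 16095 genes above 0 in at least 12 libraries it was 28.0%. Abca3, a phospholipid transporter known from the lamellar bodies of the lung, was at 367 RPKM in Control replicate 5, where it made up 90.8% of the family's sum, and at most 0.701 RPKM in the other 9 controls. That library is also the one where 73.4% of the whole RPKM sum was Rn45s, the precursor of ribosomal RNA. Day 5 replicate 3 held the highest value of 11 of the 48 genes (22.9%), and of 11.0% of those 16095 genes. The A members Abca14, Abca15 and Abca16, the pair Abca8a and Abca8b, and the pair Abcb1a and Abcb1b are close copies, and how their reads were split is not stated.

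**Figure D2:**
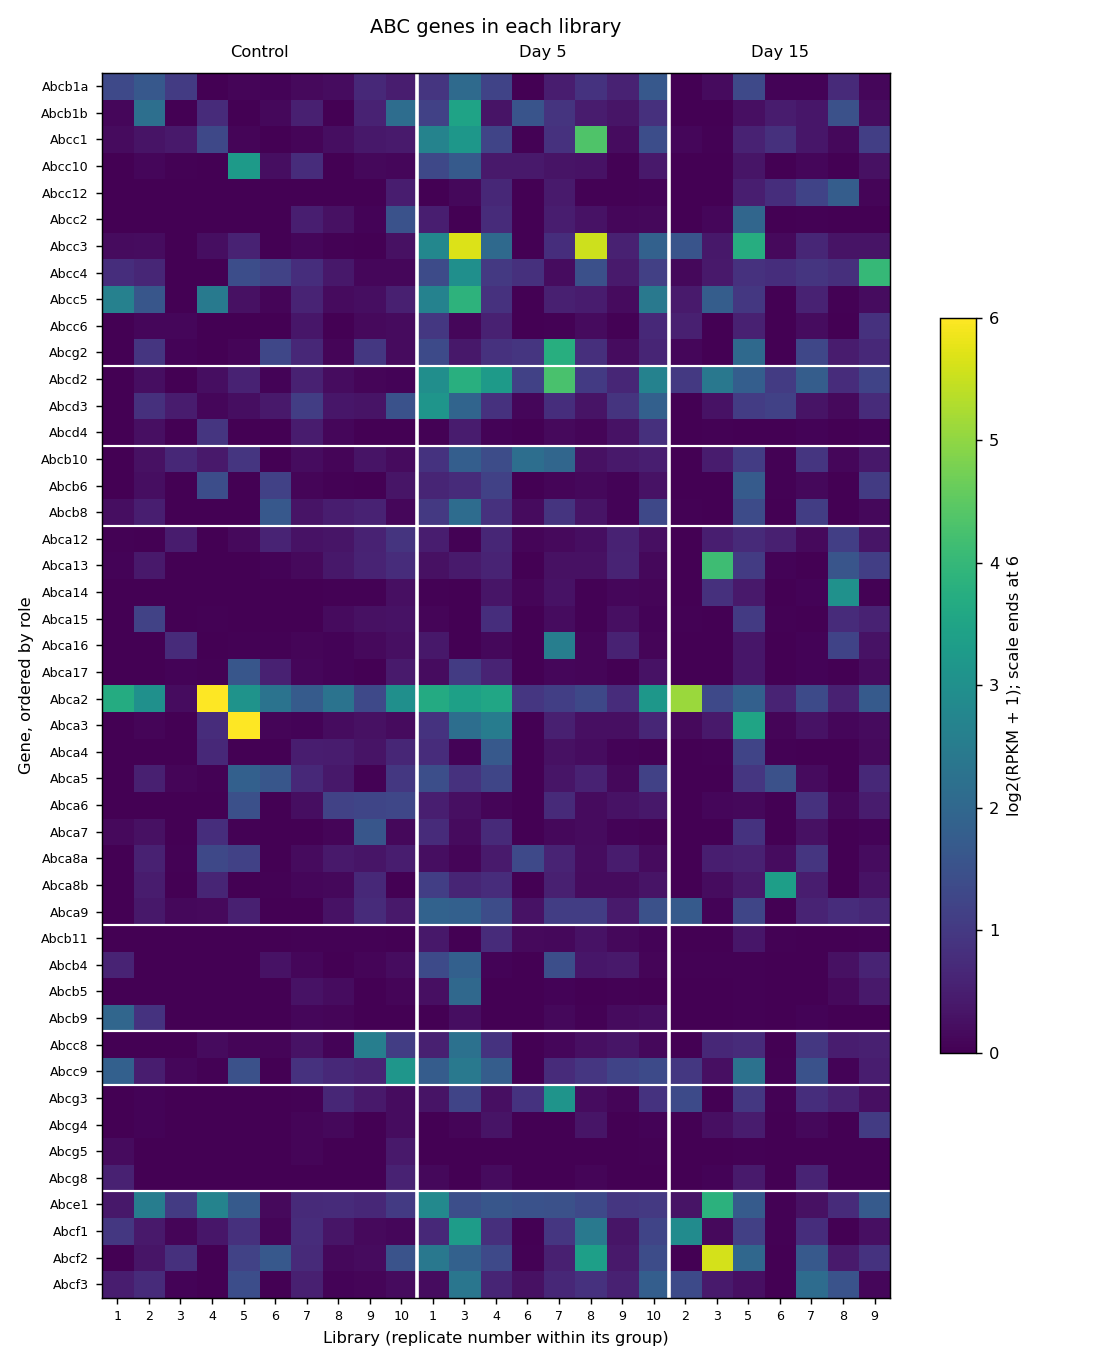
Level of 46 of the ABC genes as log2(RPKM + 1), genes in rows grouped by role between white lines and the 25 libraries in columns by group; the colour scale ends at 6, which Abca2 in Control replicate 4 (202 RPKM) and Abca3 in Control replicate 5 (367 RPKM) exceed. Abca2 is the one gene visible across most columns, and Abcd2 and Abcc3 are brighter at Day 5 than in controls.

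The first comparison asked which ABC genes differed at Day 5 of stroke from control. Of 14 tested genes 3 rose, 0 fell and 11 did not pass. Abcd2, a peroxisomal importer of long-chain fatty acids, rose by 2.28 on the log2(RPKM + 1) scale, Abcc3, an exporter of glucuronides and bile salts, by 2.24 and Abcc1, an exporter of glutathione conjugates and leukotrienes, by 1.40. Genes were tested in limma if 7 or more libraries had an RPKM of 1 or higher, and called at a Benjamini-Hochberg adjusted p under 0.05 over all 4319 genes kept. Of all tested genes, 6.02% were called higher and 0.0232% lower. The limit favours genes that are high in a group: Abcd2 and Abcc3 passed it through stroke libraries alone, and Abcc1 through 1 control and 6 stroke libraries, so the count of 3 among those kept is a description. The median change was 0.73 over the 14 ABC genes and 0.61 over all tested genes, and 13 of the 14 lay above 0, against 84.9% of all genes.

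Abcd2 was listed at 0 in Control replicate 1, had a control median of 0.104 RPKM and a control maximum of 0.484 RPKM. At Day 5 it ran from 0.555 RPKM in replicate 9 through a median of 6.08 to 18.3 RPKM in replicate 7. All 8 Day 5 libraries lay above all 10 controls, a separation that 0.208% of the 22610 genes above 0 anywhere showed in that direction. Its change was 2.28 (SE 0.47, limma adjusted p = 0.00458). The call held in each of the 25 fits that left out 1 library (adjusted p from 0.00213 to 0.0157). It did not hold after quantile normalization (1.68, adjusted p = 0.0510) or when each library's number of detected genes was a covariate (1.73, adjusted p = 0.181). For this covariate a gene was counted as detected at an RPKM of at least 1.

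Abcc3 was at most 0.492 RPKM in controls, with a median of 0.104, and was listed at 0 in Control replicate 6. At Day 5 its median was 2.89 RPKM. Replicate 3 held 50.02 RPKM and replicate 8 held 45.7 RPKM, replicates 1, 4 and 10 held 5.81, 3.11 and 2.67 RPKM, and replicate 6 was listed at 0, so the groups overlapped, with 6 of 8 Day 5 libraries above every control. The change was 2.24 (SE 0.58, limma adjusted p = 0.0185). Without Day 5 replicate 3 it was 1.77 and not called (adjusted p = 0.0617), and when libraries were scaled by upper quartile, sum or quantiles it was 1.75, 1.97 and 1.61, also not called (adjusted p = 0.0975, 0.0548 and 0.156). The filter stayed as set over all 25 libraries. Abcc3 reached an RPKM of 1 in 7 of them, Day 5 replicate 3 included, so without that library the gene would fall below the filter.

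Abcc1 had a control median of 0.207 RPKM, with 1.48 RPKM in Control replicate 4 and at most 0.349 in the others. At Day 5 it ran from 0.0322 RPKM in replicate 6 through a median of 1.51 to 19.3 RPKM in replicate 8, and 4 of 8 libraries lay above every control. The change was 1.40 (SE 0.42, limma adjusted p = 0.0371). The call was lost in 10 of the 25 fits without 1 library, with changes from 1.03 to 1.41 and adjusted p from 0.0535 to 0.0902. These left out Day 5 replicate 1, 3 or 8 or Control replicate 1, 3, 6, 7, 8, 9 or 10. Abcc1 too reached an RPKM of 1 in 7 libraries, Day 5 replicates 1, 3 and 8 among them, and was kept in those fits. The same 3 scalings ended the call too (0.84, 1.00 and 0.71, adjusted p = 0.373, 0.277 and 0.477). Leaving out the 2 libraries richest in Rn45s gave 1.42 for Abcc1 (adjusted p = 0.0582). With detected genes as a covariate neither was called, at 1.08 for Abcc3 (adjusted p = 0.562) and 1.06 for Abcc1 (adjusted p = 0.435).

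Each scaling moved the median of all tested genes, from 0.61 as deposited to 0.10 by upper quartile, 0.16 by the sum of all genes but Rn45s and -0.02 by quantiles. Relative to that median, Abcd2 stood at 1.67 as deposited and at 1.69, 1.85 and 1.70 under the 3 scalings. Abcc3 stood at 1.63, 1.65, 1.803 and 1.63 in the same order, and Abcc1 at 0.79, 0.74, 0.84 and 0.73. Within replicate numbers 1 to 6 and 7 to 10, each with fewer libraries, the changes were 2.61 and 1.93 for Abcd2, 2.42 and 2.08 for Abcc3, and 1.40 and 1.42 for Abcc1, with 0 of 14 genes called in either range (adjusted p from 0.0869 to 0.257 for these 3 genes; 7 and 3 of the 14 had an unadjusted p under 0.05, against 19.2% and 18.4% of all tested genes).

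**Figure D3:**
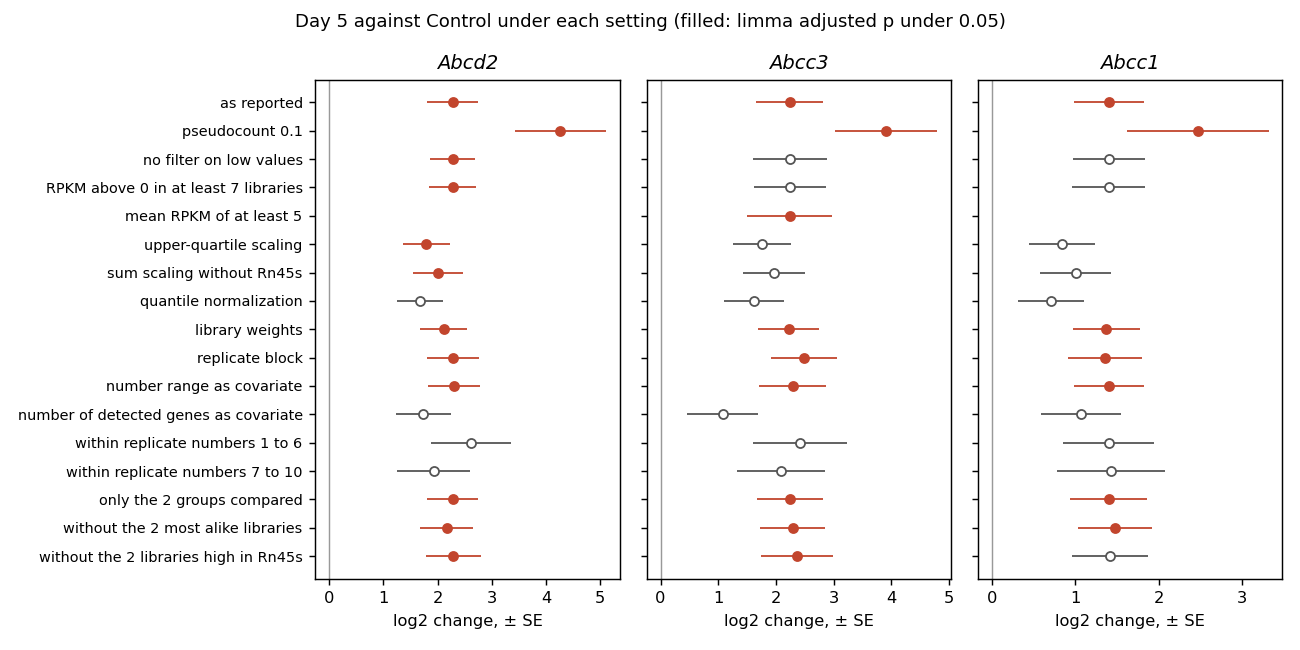
Log2 change at Day 5 against control (horizontal axis, with SE bars) of Abcd2, Abcc3 and Abcc1 under each setting in rows, filled where the limma adjusted p is under 0.05; a missing point means that the gene was below that filter. All values lie above 0, from 1.68 to 4.26 for Abcd2, 1.08 to 3.91 for Abcc3 and 0.71 to 2.46 for Abcc1, and the filled points are fewest for Abcc1.

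The markers of phagocytes were also higher in these Day 5 libraries. The macrophage and leukocyte sum ran from 157 to 2611 RPKM at Day 5, and every Day 5 library lay above the highest control at 86.5. The order within Day 5 was not the same for the 2 readouts: Abcd2 was highest in replicate 7, where that sum was the lowest of the 8, and Day 5 replicate 4, with the highest sum, held 8.60 RPKM of Abcd2 and 3.11 RPKM of Abcc3. Abcc3 was highest in replicate 3, which also had the highest microglia, astrocyte and OPC sums of Day 5, at 764, 769 and 111 RPKM. Replicate 8, with 45.7 RPKM of Abcc3, had a microglia sum of 177 RPKM. Replicate 10, with a microglia sum of 575 RPKM, held 2.67 RPKM of Abcc3. Endothelial sums of Day 5 were highest in replicates 8 and 3, at 37.1 and 24.1 RPKM, and at most 14.7 RPKM elsewhere. These replicates also held the most Abcc1 of Day 5, at 19.3 and 8.11 RPKM. Control replicate 4, with an endothelial sum of 35.8 RPKM, held 0.176 RPKM of Abcc3 and 1.48 RPKM of Abcc1. Day 15 replicate 7, with an endothelial sum of 31.3 RPKM, held 0.560 and 0.290 RPKM of them. The sum over 7 fibroblast markers, of which Pdgfra is also an OPC marker, had a median of 2.47 RPKM among controls (0.593 to 12.9), 22.7 at Day 5 (9.68 to 87.0) and 16.7 at Day 15 (3.51 to 59.6). None of the 3 fibroblast markers tested passed at Day 5, where Fn1, a matrix protein, had the smallest p (2.00, limma adjusted p = 0.0527). The part of these cells in the changes of Abcd2, Abcc3 and Abcc1 was not tested.

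**Figure D4:**
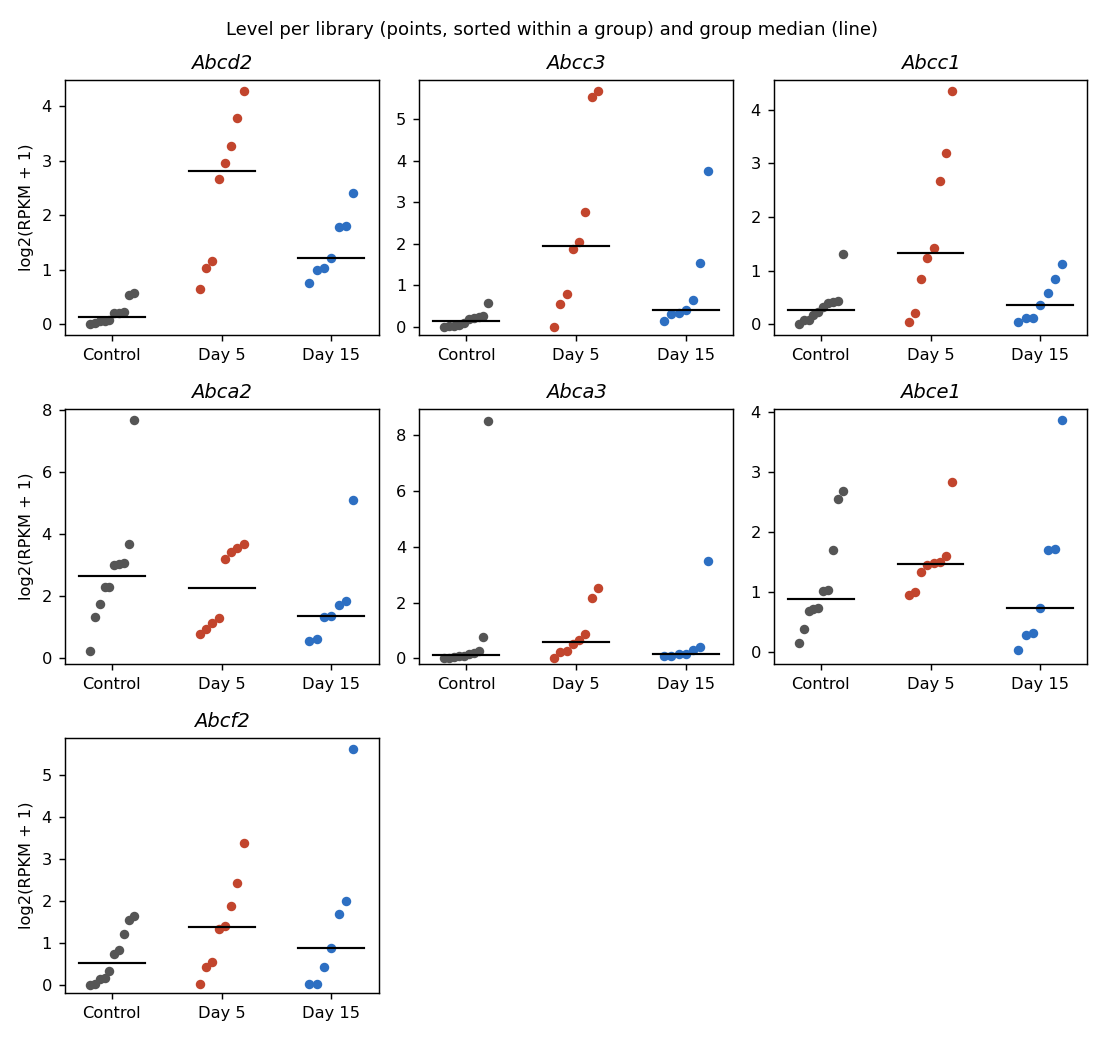
Level of 7 ABC genes per library as log2(RPKM + 1), points sorted within each group, lines at group medians; each panel has its own vertical scale. For Abcd2 all Day 5 and Day 15 points lie above all control points, while the other panels overlap, and single points stand far above their group for Abca2 and Abca3 in controls and Abcf2 at Day 15.

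In the same subfamily Abcd3, which imports branched-chain fatty acids and bile acid precursors into peroxisomes, did not pass at 0.70 (limma adjusted p = 0.197), and Abcd4 was below the filter. Of 13 partner genes of the peroxisome, from its import machinery to its oxidation enzymes, 5 were tested and 0 passed. Cat, the catalase that clears peroxide there, had the smallest p of these, with 1.17 (limma adjusted p = 0.197).

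The remaining drug and conjugate exporters had changes that did not pass, of 0.64 for Abcc4, an exporter of cyclic nucleotides and prostaglandins, 0.51 for Abcc5 and 0.41 for Abcb1a, a P-glycoprotein of the blood-brain barrier. The highest value of Abcb1a was 2.15 RPKM among controls, 3.22 at Day 5 and 1.52 at Day 15. Abcg2, the other main drug pump of that barrier, did not reach the filter. Among 15 genes of glutathione supply, use and conjugation, 6 were tested and 1 rose, Gpx1, a glutathione peroxidase, by 1.84 (SE 0.52, limma adjusted p = 0.0298). The tested synthesis and conjugation genes Gclc, Gclm and Gstm1 did not pass (0.16, 0.81 and -0.06). Gpx1 had a median of 3.61 RPKM at Day 5 and of 0.349 in controls.

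The mitochondrial genes Abcb6, Abcb8 and Abcb10 were below the filter. Of 11 mitochondrial partner genes in haem and iron-sulfur synthesis 3 were tested and 0 passed. Alas1, the first enzyme of haem synthesis, had the smallest p with 1.82 (limma adjusted p = 0.0551), and Day 5 replicate 6 held 178 RPKM of it, against a Day 5 mean of 2.32 RPKM without that library.

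Abca2 was the exception in direction among the 14, at a log2 change of -0.58 (SE 0.73, limma adjusted p = 0.632). Its control median was 5.43 RPKM (0.152 to 202), its Day 5 median 4.77 (0.708 to 11.7) and its Day 15 median 1.54 (0.453 to 33.2). Without 1 library it ran from -0.87 (Control replicate 3) to -0.0437 (Control replicate 4). By upper quartile, sum and quantiles it was -1.37, -1.31 and -1.28, and with detected genes as a covariate -1.51, none of them called. The 202 RPKM came from Control replicate 4, and the control mean was 24.7 RPKM with it and 5.00 without it. The sum over markers of mature oligodendrocytes, the cells in which Abca2 is abundant, had medians that were lower in the stroke groups in the same order. Of 9 tested markers 0 were called at Day 5, with the lowest p for Mobp, at -1.72 (limma adjusted p = 0.140). Ermn, Mal and Mag had changes above 0 (1.05, 0.36 and 0.11), and the other tested markers had changes below 0. Their part in the levels of Abca2 was not tested. Abca9, the other A member tested, had 0.92 (SE 0.30, limma adjusted p = 0.0521).

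Abce1 and Abcf2, a relative of Abce1 that binds ribosomes, had changes of 0.35 (limma adjusted p = 0.677) and 0.76 (limma adjusted p = 0.372) at Day 5. The change of Abce1 was below 0 under all 3 scalings, at -0.20, -0.14 and -0.32. Of 7 partner genes in translation 5 were tested and 1 rose, Etf1, the factor that releases finished proteins at stop codons, by 2.08 (SE 0.60, limma adjusted p = 0.0315). Abcc9, a subunit of potassium channels known from pericytes, had 0.35 (limma adjusted p = 0.639), and neither pore gene, Kcnj8 or Kcnj11, reached the filter. The summed pericyte and smooth muscle markers had medians of 1.21 RPKM in controls, 10.1 at Day 5 and 2.60 at Day 15; their part in these levels was not tested. Of the cholesterol exporters outside this set, Abca1 rose by 2.74 (SE 0.71, limma adjusted p = 0.0185), and Abcg1 did not pass (1.46, limma adjusted p = 0.125). Among ABC genes whose symbols fall outside the rule, 1 of 3 was tested, the antigen peptide transporter Tap1, which did not pass (-0.21, limma adjusted p = 0.806). Its 8 partners in peptide loading included 6 tested genes, of which 0 passed, with B2m, the light chain of the antigen-presenting molecules, at 2.21 (limma adjusted p = 0.0667). Of 5 cobalamin partners of Abcd4, 2 were tested and 0 passed, with Lmbrd1, its lysosomal partner, at 1.03 (limma adjusted p = 0.161).

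**Figure D5:**
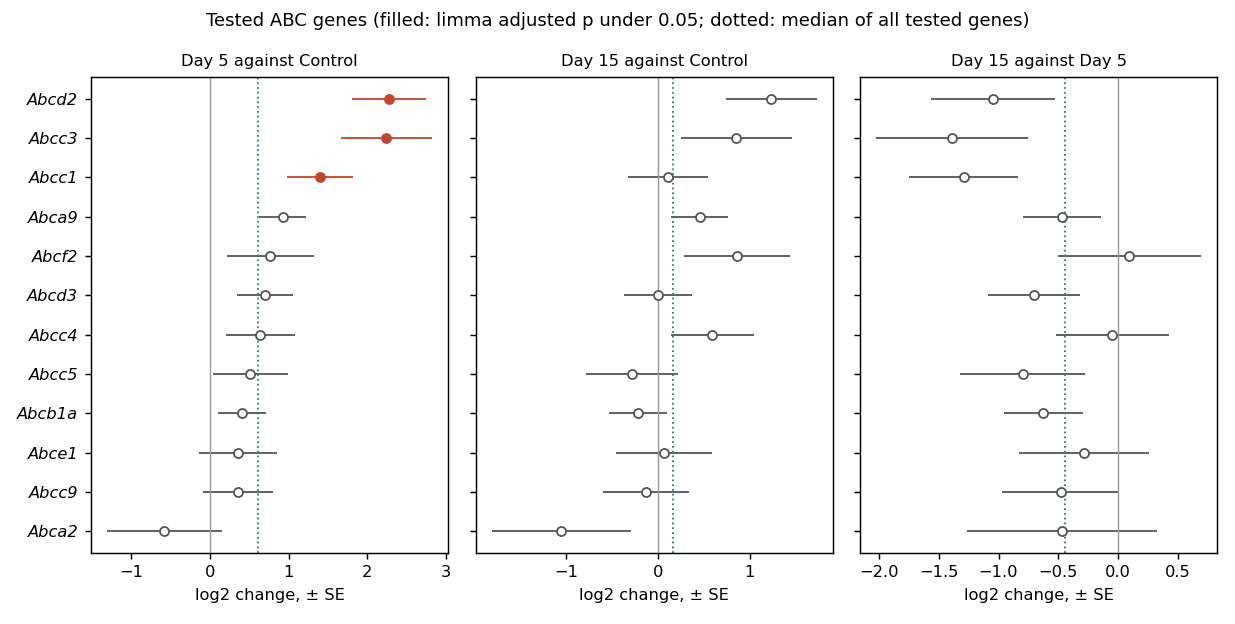
Log2 change with SE bars (horizontal axis) of 12 of the tested ABC genes in the 3 comparisons, filled where the limma adjusted p is under 0.05, with the median of all 4319 tested genes as a dotted line. At Day 5, 11 of these 12 lie above 0 and 3 are filled; in the other panels none is filled.

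The 34 genes below the filter were fitted with a looser one, an RPKM above 0 in at least 7 libraries, which kept 19548 genes and all 48 ABC genes. At Day 5 Abcd2 was then the sole ABC gene called (limma adjusted p = 0.0194), where 0.113% of genes were called higher. Abcc3 and Abcc1 were not called in that fit (limma adjusted p = 0.142 and 0.174). Of the 34, 25 (73.5%) had a change above 0, against 77.0% of all genes kept, with a range from -0.24 to 0.87, and the smallest adjusted p was 0.194, that of Abcb10, a mitochondrial transporter of haem-forming cells. An unadjusted p under 0.05 was seen for 4 of them, Abcb10, Abcb11, Abcb4 and Abcg3, which is 11.8% of the 34, against 14.9% of all genes kept. Abcb4, the exporter of phosphatidylcholine into bile, reached 2.56 RPKM in Day 5 replicate 3 and 0.501 RPKM in controls.

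The second comparison asked the same of Day 15. Of the 14 tested genes 0 passed in limma in either direction, 1 had an unadjusted p under 0.05 (7.14%, against 8.87% of all tested genes), and of all tested genes 0.0926% were called higher and 0% lower. Abcd2 had a median of 1.32 RPKM (0.687 to 4.31), and all 7 Day 15 libraries lay above all 10 controls, which 0.0133% of the 22610 genes did in that direction and 0.00442% in the other. Its change was 1.23 (SE 0.49, unadjusted p = 0.0158), which did not pass over all genes (limma adjusted p = 0.414). Abcf2 had 0.86 (SE 0.57, limma adjusted p = 0.695), and 47.9 RPKM of it in Day 15 replicate 3 stood against at most 3.01 in the other 6. Without that library its change was 0.18.

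Abcc3 at Day 15 was at 12.5 RPKM in replicate 5 and at most 1.93 in the other 6 libraries, and the fitted change was 0.85 (SE 0.60, limma adjusted p = 0.733). Without Day 15 replicate 5 it was 0.40 (limma adjusted p = 0.910). Day 15 replicate 5 also had the highest microglia sum of all libraries, 1663 RPKM, and was the library most like a library of another group, Day 5 replicate 4 (Spearman correlation of 0.48 across the tested genes, the highest of all pairs). Abcc1 had 0.11, and its Day 15 median of 0.290 RPKM lay within the range of controls. The median change of the 14 was 0.09, against 0.17 for all tested genes. Under the looser filter 0 of 48 passed and 4 had an unadjusted p under 0.05 (8.33%, against 4.08% of all genes kept): Abcd2, and below the first filter Abca13, Abca14 and Abcc12, whose highest values were 16.5 RPKM in Day 15 replicate 3 and 7.19 and 2.42 RPKM in Day 15 replicate 8.

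The third comparison set Day 15 against Day 5. Again 0 of 14 genes passed in limma, 4 had an unadjusted p under 0.05 (28.6%, against 14.7% of all tested genes), and 0% of all tested genes were called in either direction. Under the looser filter 0 of 48 passed, and 7 had an unadjusted p under 0.05 (14.6%, against 8.61% of all genes kept). Among the 14, an unadjusted p under 0.05 was seen for Abcc1 (-1.29, SE 0.46, limma adjusted p = 0.242) and Abcc3 (-1.39, SE 0.63, limma adjusted p = 0.297). For Abcd2, also under 0.05 unadjusted, the value was -1.05 (SE 0.52, limma adjusted p = 0.338), with 0 of 7 Day 15 libraries above the highest Day 5 library. The median of the 14 was -0.61, against -0.44 over all tested genes. The difference between the 2 days was thus not shown for any ABC gene, including those called at Day 5. The comparisons of each day with control share the same 10 control libraries.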

How the data were processed

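RNA-seq was measured in 25 laser-captured samples. Nugen amplification of cDNA and paired reads of 100 bp are stated per the labels' protocols. The tools STAR 2.1.4a, HTSeq and CASAVA 1.8.3 and the build mm9 are named per the submitters' processing notes. The authors deposited RPKM values, a unit taken from their table's title, and the sources used here do not say how they scaled them. Depth is unknown because low values do not step in whole reads, and counting intervals are left out. Labels gave each library's group and replicate number.

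Genes reaching an RPKM of 1 in 7 or more libraries were tested as log2(RPKM + 1), a scale that understates changes of low genes. The test was 1 fit of all 3 groups with limma 3.58.1 in R 4.3.3 (trend, robust, two-sided), adjusted over 4319 genes. It was also run on simulated data, with normal values drawn independently for each gene. Those lack shifts of whole libraries and single high libraries, so they cannot tell how the test behaves on these data. Descriptions used Python 3.11.15. The genes, lists and tests were chosen with earlier results of these data known. Named are the called genes and the 3 with the smallest p in each comparison, Abcc1, Abcc3 and Abcd2, the 6 with the highest means, and of each partner list the called gene or that with the smallest p; others stand by role, and single genes of a role named beyond this were picked after their values were seen. Some genes are counted in totals but not reported here. Alternatives were other pseudocounts, filters, scalings, weights and covariates, a replicate block, number ranges, the compared groups alone and leaving out each library. Fits with fewer libraries kept the filter as set over all 25. Leaving out the 2 most alike libraries, or the 2 highest in Rn45s, was chosen after seeing the data. Whether the numbers pair the libraries was checked on deviations from group means. Coordinates and sequences are left out, as the reference tables are of a later build than mm9.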

Additional observations from a re-analysis of the deposited data

Results flagged for a closer look

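In 24 groups of values examined, 10 had a library that stood apart from the rest of its group by Dixon's ratio. The values were 7 genes as log2(RPKM + 1) and the number of detected ABC genes, a count capped at 48, in 3 groups. Chance alone gives about 1 in 20 groups where values are normally distributed, which was not tested here. The 7 genes include the 6 with the highest means. For Abca2, Abca3 and Abcf2, 1 library held 60.5%, 94.1% and 58.5% of the summed RPKM, so the number flagged is a description. In controls these were Abca2 at 202 RPKM in replicate 4 (next 11.9), Abca3 at 367 RPKM in replicate 5 (next 0.701), Abcc1 at 1.48 RPKM in replicate 4 (next 0.349) and Abcc3 at 0.492 RPKM in replicate 5 (next 0.207). At Day 5 it was Abce1, at 6.08 RPKM in replicate 1 (next 2.03), together with the number of ABC genes above 0, which was 28 in replicate 6 and at least 43 in the other 7 libraries. At Day 15 they were Abca2 at 33.2 RPKM in replicate 2 (next 2.57), Abca3 at 10.3 RPKM in replicate 5 (next 0.329), Abcc3 at 12.5 RPKM in the same library (next 1.93) and Abcf2 at 47.9 RPKM in replicate 3 (next 3.01). Each was the highest value of its group, apart from the detected number in Day 5 replicate 6, which was the lowest.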

How the results depend on the processing

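Depth is unknown, which leaves values near 0 without a stated precision. At Day 5, where 3 of 14 tested ABC genes were called, 6 were called with a pseudocount of 0.1, with the replicate block and with the number range as a covariate, and 5 with the compared groups alone. With library weights or without the 2 most alike libraries 4 were called, and 2 without the 2 libraries highest in Rn45s. The count was 1 without a filter, above 0 in at least 7 libraries, at a mean RPKM of at least 5 (3 genes tested), and by upper-quartile or sum scaling. It was 0 after quantile normalization, with each library's detected genes (RPKM of at least 1) as a covariate and within either number range. The cause was not tested. Some of these settings also use other numbers of genes or libraries. Leaving out 1 library gave 1 to 6 calls. There was 1 without Day 5 replicate 3, 5 without Day 5 replicate 6 or Control replicate 5, and 6 without Day 5 replicate 7 or 9. There were 2 without Day 5 replicate 1 or Control replicate 1, 3, 6, 7, 8, 9 or 10. There were 4 without Day 5 replicate 4 or 8, Control replicate 2, or Day 15 replicate 2, 5, 6 or 8. The remaining fits gave 3. Abca9 was among the genes added. At Day 15 and between the days 0 ABC genes were called under every setting run. All genes called at Day 5 numbered 261 as reported, 553 with a pseudocount of 0.1, 597 with library weights, 499 with the replicate block, 398 with the number range as a covariate and 119 at a mean RPKM of at least 5. They numbered 24 without a filter, 22 above 0 in at least 7 libraries, 22 by upper quartile, 36 by sum, 20 by quantiles, 4 within either number range and 0 with detected genes as a covariate. At Day 15 they were 4, with a range of 0 to 38 over the settings. No pairing of libraries by replicate number was seen: 0 of 20 same-numbered pairs had a correlation of deviations above 0.1 (-0.0573 to 0.0842), and 3 of 20 correlated best with their own number. This check cannot tell whether same-numbered libraries shared an animal or a run.

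Detected ABC genes per library averaged 22.7, 34.1 and 25.6 at an RPKM of at least 0.1 and 5.6, 13.1 and 8.86 at an RPKM of at least 1 in controls, Day 5 and Day 15, and leaving out 1 library moved the averages above 0 to 35.0 to 37.6, 43.9 to 46.7 and 39.2 to 42.7. Of 276 results of 6 single genes under the alternatives, 236 stayed as reported, 21 lost and 0 gained a call, and 19 changed sign, none of them called. For Abce1 these were -0.20, -0.32, -0.14 and -0.28 at Day 5 (upper-quartile, quantile and sum scaling, detected genes as covariate; 0.35 as reported). At Day 15 (0.07) they were -0.21 with a pseudocount of 0.1, -0.20, -0.15, -0.26 and -0.12 in the same order, and -0.0144 without the 2 most alike libraries. Between the days (-0.29) they were 0.17 after quantile normalization and 0.16 with detected genes. For Abca2 between the days (-0.47) they were 0.0157 after quantile normalization, 0.0231 with the replicate block and 0.19 with detected genes. For Abcf2 between the days (0.10) they were -0.30 with a pseudocount of 0.1, -0.20 with library weights and -0.44 within numbers 7 to 10. For Abcc1 at Day 15 (0.11) the value was -0.0194 under sum scaling. Leaving out 1 library also changed signs, over ranges of -0.0014 to 0.22 for Abcc1 and -0.37 to 0.27 for Abce1 at Day 15, and -0.59 to 0.38 for Abcf2 between the days. The causes were not tested.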
